A study of Mus musculus with 89 samples.

Results

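The genes described here are 7 transcription factor genes of the part of mouse chromosome 16 (Mmu16) that is triplicated in 2 mouse models of Down syndrome: Gabpa, Bach1, Runx1, Sim2, Ripply3, Erg and Ets2, in their order along the chromosome. They were chosen by name, as transcription factor genes of the segment other than Olig1 and Olig2, and each was measured by 1 probe set of 22206 on the array. They are 7 of 117 measured protein-coding genes of the segment, which holds 150 protein-coding genes in RefSeq between Mrpl39 and Zbtb21. The data are log2 signals of Clariom S arrays, expression arrays with 1 probe set for most genes, and each of 89 arrays held the forebrain RNA of 1 embryo at embryonic day 18.5. Ts65Dn embryos carry an extra small chromosome that holds this Mmu16 segment together with a part of mouse chromosome 17 (Mmu17) without orthologues on human chromosome 21, and Ts66Yah embryos carry a version of it that lacks the Mmu17 part. The 4 groups were 18 euploid embryos (EupTs65Dn) and 23 trisomic embryos (Ts65Dn) of the first colony, and 24 euploid embryos (EupTs66Yah) and 24 trisomic embryos (Ts66Yah) of the second. Each colony gave 6 litters, named by the dam, and each litter held embryos of both genotypes. All groups were untreated and on a mixed B6 and C3H background. In both models the extra copies sit on a separate chromosome and not in place on Mmu16. The Ts65Dn extra chromosome came from the dam, so every Ts65Dn and EupTs65Dn embryo had a trisomic mother. The Ts66Yah colony was started from founder females and expanded by in vitro fertilization with sperm of a few males.

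As background, these proteins belong to several families that read different DNA sequences. GABPA, ERG and ETS2 carry the ETS domain, which binds a core of GGAA. GABPA pairs with GABPB1 or GABPB2 and drives many housekeeping and mitochondrial genes, ERG keeps the identity of endothelial cells, and ETS2 is switched on by ERK phosphorylation downstream of growth factors. BACH1 pairs with small MAF proteins and represses genes of haem breakdown and of the antioxidant response until haem displaces it. RUNX1 binds DNA with CBFB and is required for blood stem cells and for the myeloid lineage, to which microglia belong. SIM2, a basic helix-loop-helix and PAS protein related to the midline regulator of the fly, pairs with ARNT, and RIPPLY3 has no DNA-binding domain and represses T-box factors such as TBX1 through TLE corepressors.

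Promoter sequences are shown for the members that were called in at least 1 model and have a single start in RefSeq, since these are the genes that passed the test with the least doubt about where they start. Of the 7 members, 5 were matched in the RefSeq promoter table (GRCm38.p6), with 8 starts in all; Sim2 and Ripply3 were not matched. The windows are the 250 bases before the start, 5′ to 3′ on the strand of the gene, which is the plus strand for all 3. They lie at chr16:84834874-84835123 for Gabpa, chr16:87698704-87698953 for Bach1 and chr16:95702157-95702406 for Ets2, immediately before the first exon, and capitals mark a match to the ETS motif CCGGAAG on either strand.
Gabpa: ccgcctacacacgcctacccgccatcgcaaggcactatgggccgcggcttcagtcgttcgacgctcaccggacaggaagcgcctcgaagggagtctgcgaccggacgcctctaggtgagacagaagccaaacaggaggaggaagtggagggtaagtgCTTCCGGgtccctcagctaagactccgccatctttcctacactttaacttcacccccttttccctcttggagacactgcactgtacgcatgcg
Bach1: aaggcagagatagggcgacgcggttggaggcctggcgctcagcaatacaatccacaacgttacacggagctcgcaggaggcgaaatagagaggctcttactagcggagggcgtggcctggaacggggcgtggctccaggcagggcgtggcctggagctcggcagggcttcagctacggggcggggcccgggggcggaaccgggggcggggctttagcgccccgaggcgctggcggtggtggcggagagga
Ets2: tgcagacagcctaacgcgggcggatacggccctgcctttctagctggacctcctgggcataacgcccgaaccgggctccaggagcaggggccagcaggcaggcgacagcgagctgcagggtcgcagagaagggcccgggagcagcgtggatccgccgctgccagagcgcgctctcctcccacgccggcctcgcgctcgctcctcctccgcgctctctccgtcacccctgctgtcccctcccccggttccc
The 3 windows are rich in CpG, with 19 CpG in that of Gabpa, 25 in that of Bach1 and 25 in that of Ets2, against a median of 6 over 32851 promoter windows of the same length. Their GC content is 59.6% for Gabpa, 69.2% for Bach1 and 71.6% for Ets2, against a median of 52.4%. The Gabpa window holds 1 match to the ETS motif, CTTCCGG, which reads as CCGGAAG on the minus strand and lies 93 to 87 bases before the start. That motif is in 6.91% of all windows. The other motifs searched on both strands were TGAGTCA for BACH and MAF or AP-1, in 4.46% of windows, TGTGGTT for RUNX, in 4.4%, and TACGTG for SIM and ARNT, in 2.72%, and these letters were in none of the 8 windows of the members. Gabpa starts head to head with Atp5j, which encodes a subunit of the mitochondrial ATP synthase: the 2 starts are 148 bases apart on opposite strands, and 247 bases of their promoter entries in the RefSeq table are shared.

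The array means lay between 5.26 and 5.33 in the Ts65Dn colony and between 6.35 and 6.41 in the Ts66Yah colony, so no level is compared between colonies. One EupTs66Yah array (replicate 16, litter WT18) stood apart, with a mean of 6.05 and a standard deviation across probe sets of 1.13, against 2.23 to 2.40 on the other arrays of its colony. Its values for the members were far from those of its group, with Gabpa at 4.81 and Ripply3 at 9.01. It was left out of the main Ts66Yah values, and the value with all arrays is given beside them. On 4 arrays the mean of the other segment genes lay nearer to the median of the opposite genotype (Ts65Dn replicate 18, Ts66Yah replicates 13 and 24, EupTs66Yah replicate 24), and on 17 arrays Y-linked genes went against the labelled sex. These arrays were kept under their labels, and leaving out either set changed no call of a member. In the Ts65Dn colony 10 of 10 measured forebrain markers lay at or above the median signal of all probe sets, and in the Ts66Yah colony 9 of 10. Of 8 midbrain and hindbrain markers 0 lay at or above the median signal in the Ts65Dn colony and 5 in the Ts66Yah colony. Their mean per embryo ranged from 4.69 to 6.85 in the Ts66Yah colony. The group means there were 5.88 ± 0.44 (SD, n = 23) in EupTs66Yah and 6.09 ± 0.50 (SD, n = 24) in Ts66Yah. In the Ts65Dn colony the range was narrower, from 3.12 to 3.75. The group means there were 3.37 ± 0.11 (SD, n = 18) in EupTs65Dn and 3.43 ± 0.19 (SD, n = 23) in Ts65Dn. The part of this difference between the colonies in the results was not tested.

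Of the 7 members, 2 passed the test in Ts65Dn and 4 in Ts66Yah, all of them higher in the trisomic embryos. A gene was called when its adjusted p (limma, Benjamini-Hochberg over all 22206 probe sets) was under 10%. In Ts65Dn the called members were Gabpa and Bach1, where 0.491% of all probe sets were called. In Ts66Yah the called members were Gabpa, Bach1, Erg and Ets2, where 0.932% of all probe sets were called. With all 48 arrays of the Ts66Yah colony, 2 of 7 members were called, Erg and Ets2, where 0.171% of all probe sets were called. The median difference over the 7 members was 0.30 on the log2 scale in Ts65Dn and 0.38 in Ts66Yah, while the median over all probe sets was -0.0021 and 0.0044. Of the 110 other measured genes of the segment, 53 were called in Ts65Dn with a median of 0.32 over all 110, and 55 were called in Ts66Yah, with a median of 0.32 as well. With all arrays of the Ts66Yah colony 24 of these 110 were called, with a median of 0.36. Among the 56 of them at or above the median signal of all probe sets, 52 were called in each model. With all arrays of the Ts66Yah colony it was 24 of the 56. Gabpa, Bach1, Erg and Ets2 also lie at or above the median signal, and of these Erg and Ets2 were not called in Ts65Dn. The members with an adjusted p above 10% in both models, Runx1, Sim2 and Ripply3, are those whose probe sets lie below the median signal of all probe sets in both colonies. The plot of each member's signal in every embryo shows the spread behind these counts.

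**Figure D1:**
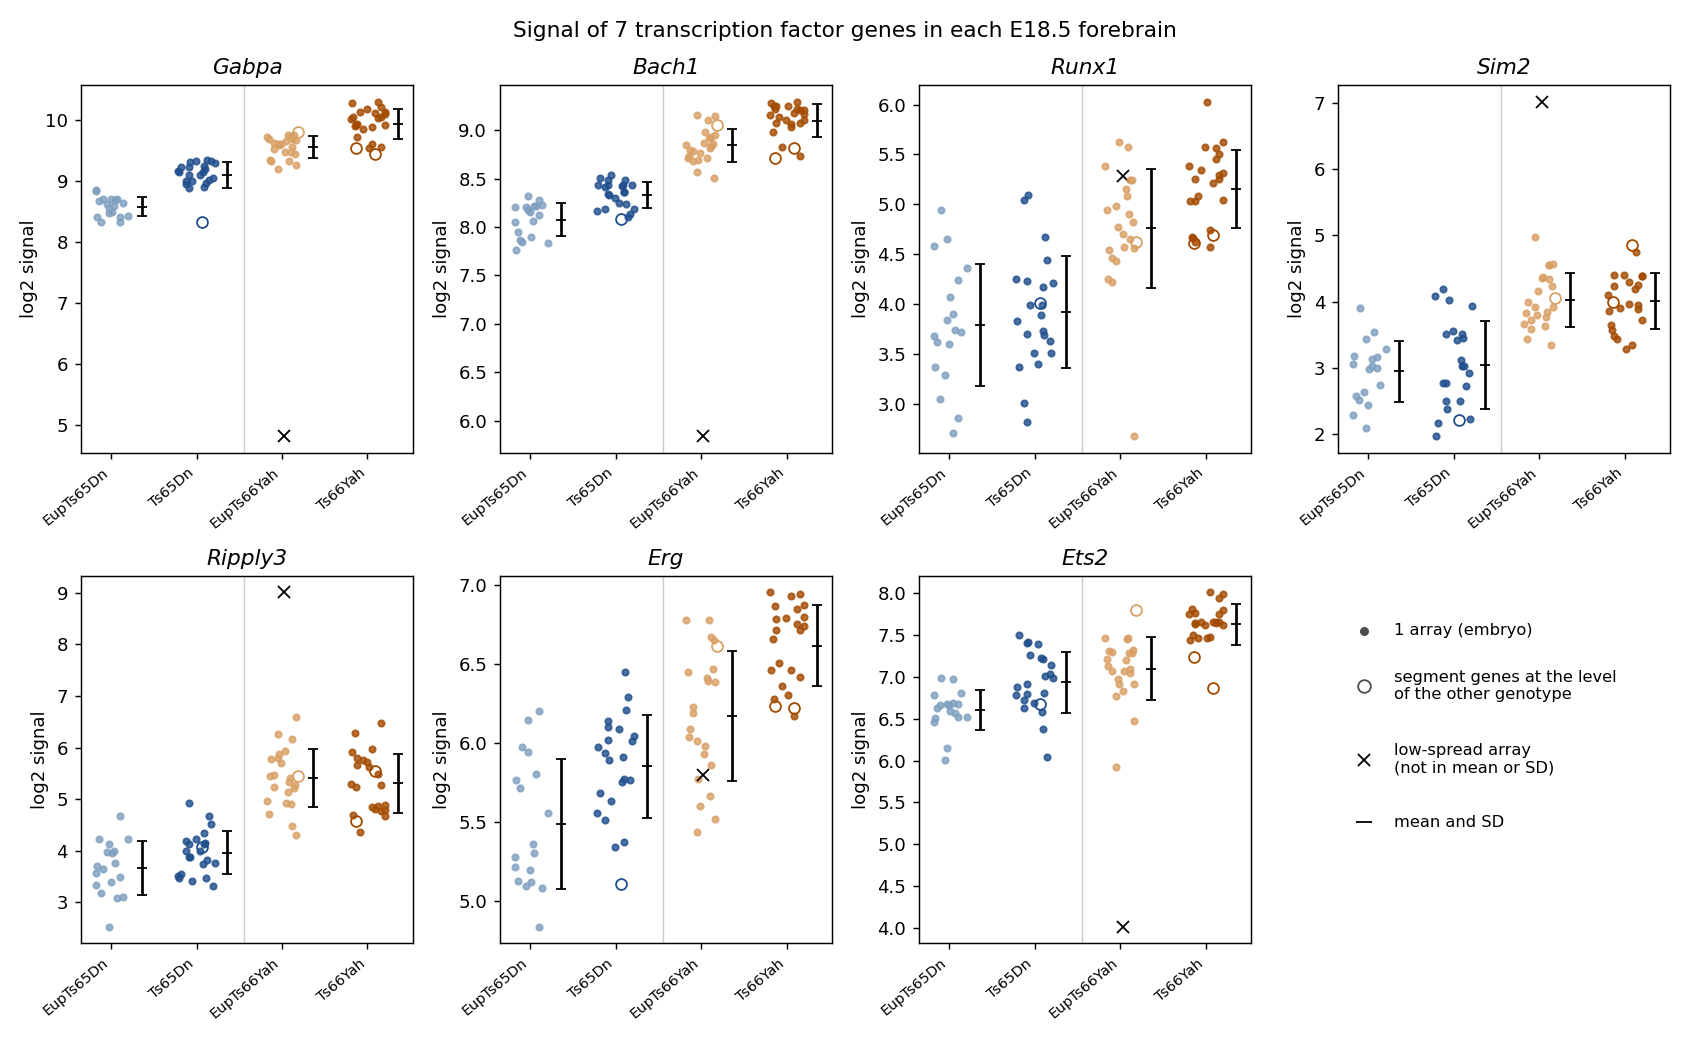
Log2 signal (vertical axis) of the 7 genes in each embryo, by group; each point is 1 array, open circles are the 4 arrays whose other segment genes lie at the level of the opposite genotype, the cross is the low-spread array, and the black bar is the mean with its SD without that array. The Ts65Dn points of Gabpa lie above the EupTs65Dn points but for 1 embryo at 8.32, while the groups overlap throughout for Sim2.

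Gabpa, the DNA-binding subunit of GABP, was higher in both models. In EupTs65Dn the lowest, median and highest log2 signal were 8.32, 8.61 and 8.84, and in Ts65Dn they were 8.32, 9.14 and 9.35. Of the 23 Ts65Dn embryos, 22 lay above the highest euploid embryo, and the remaining one was replicate 18, whose other segment genes also lay at the euploid level. Gabpa was 1.43-fold higher in Ts65Dn, with a log2 difference of 0.52 ± 0.064 (SE, n = 23 and 18) and an adjusted p of 3.6e-07 (limma). Its 95% interval, 1.31-fold to 1.57-fold, includes the ratio of 1.5 between 3 copies and 2. In EupTs66Yah the values were 9.19, 9.60 and 9.79, and in Ts66Yah 9.45, 9.97 and 10.30, where 18 of 24 trisomic embryos lay above the highest euploid embryo. Gabpa was 1.30-fold higher in Ts66Yah, with a log2 difference of 0.38 ± 0.064 (SE, n = 24 and 23) and an adjusted p of 0.00023 (limma). Its 95% interval there, 1.19-fold to 1.42-fold, lay below 1.5-fold. The highest euploid embryo was replicate 24 and the lowest trisomic embryo was replicate 24 of Ts66Yah, both of litter WT19 and both at the segment level of the opposite genotype. With all arrays the difference was 0.58 ± 0.20 (SE), with an interval of 1.13-fold to 1.97-fold, and was not called (adjusted p = 0.34, limma).

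Bach1, the haem-regulated repressor, was higher in both models by nearly the same amount. The lowest, median and highest signal were 7.76, 8.13 and 8.32 in EupTs65Dn and 8.08, 8.36 and 8.54 in Ts65Dn. The groups overlap, with 14 of 23 Ts65Dn embryos above the highest euploid embryo and 20 of 23 above the euploid median. The difference was 0.26 ± 0.052 on the log2 scale (SE, n = 23 and 18), or 1.19-fold, with an adjusted p of 0.0039 (limma). In the second colony the values were 8.50, 8.83 and 9.16 in EupTs66Yah and 8.71, 9.15 and 9.29 in Ts66Yah. The overlap was larger there, with 11 of 24 Ts66Yah embryos above the highest euploid embryo and 20 of 24 above the euploid median. The difference was 0.25 ± 0.052 (SE, n = 24 and 23), or 1.19-fold, with an adjusted p of 0.0053 (limma). The 95% interval was 1.11-fold to 1.28-fold in each model and lay below 1.5-fold in both, while the 56 other segment genes at or above the median signal had a median fold of 1.37 in Ts65Dn and 1.33 in Ts66Yah (1.44 with all arrays). With all arrays the Ts66Yah difference was 0.38 ± 0.13 (SE), with an interval of 1.08-fold to 1.56-fold, and was not called (adjusted p = 0.35, limma). The marginal criterion of the series asks for an unadjusted p under 0.01 and a ratio above 1.2 or below 0.8. Under it Bach1, at 1.19-fold, was not counted in either model, while Erg and Ets2 were counted in Ts65Dn and Runx1 in Ts66Yah. The criterion holds no correction for the number of probe sets, and the share of all probe sets that meet it is not given here.

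Ets2, the ERK-responsive ETS factor, was called in Ts66Yah and not in Ts65Dn at an adjusted p under 10%, and its mean was higher in both models. The lowest, median and highest signal were 5.92, 7.13 and 7.79 in EupTs66Yah and 6.87, 7.65 and 8.01 in Ts66Yah. The groups overlap, but 23 of 24 Ts66Yah embryos lay above the euploid median. The difference was 0.53 ± 0.091 (SE, n = 24 and 23), or 1.44-fold, with an adjusted p of 0.00032 (limma). With all arrays it was 0.66 ± 0.15 (SE) and was called (adjusted p = 0.056, limma). In the first colony the values were 6.01, 6.64 and 6.99 in EupTs65Dn and 6.05, 6.91 and 7.50 in Ts65Dn, with 10 of 23 trisomic embryos above the highest euploid embryo. The difference was 0.33 ± 0.098 (SE, n = 23 and 18), or 1.26-fold, and did not pass (adjusted p = 0.24, limma). Litter TS42 is the one of 6 in which the Ts65Dn mean of Ets2 was below the euploid mean, by a log2 difference of -0.25, and without it the difference was 0.46 and was called (adjusted p = 0.0038, limma). Litter TS137 had the highest difference, 1.07, and without it the difference was 0.20 (adjusted p = 0.77, limma). With the standard deviation of the array as a covariate the difference was 0.36 and was called as well (adjusted p = 0.084, limma).

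Erg, the endothelial ETS factor, was likewise called in Ts66Yah and not in Ts65Dn. In EupTs66Yah the lowest, median and highest signal were 5.44, 6.19 and 6.78, and in Ts66Yah they were 6.17, 6.72 and 6.95. Of the 24 Ts66Yah embryos 23 lay above the euploid median, and 11 of 23 euploid embryos lay below the lowest trisomic one. The difference was 0.45 ± 0.098 (SE, n = 24 and 23), or 1.36-fold, with an adjusted p of 0.012 (limma), and with all arrays it was 0.46 ± 0.10 (SE) and called (adjusted p = 0.026, limma). The call was lost without litter WT18, where the difference was 0.37 (adjusted p = 0.18, limma), and with the standard deviation of the array as a covariate, where it was 0.29 (adjusted p = 0.18, limma). In the first colony the values were 4.84, 5.33 and 6.20 in EupTs65Dn and 5.11, 5.91 and 6.45 in Ts65Dn. There 22 of 23 trisomic embryos lay above the euploid median, but the upper part of the euploid range reached well into the trisomic one. The difference was 0.37 ± 0.11 (SE, n = 23 and 18), or 1.29-fold, and did not pass (adjusted p = 0.29, limma). With labelled sex as a covariate it was 0.39 and was called (adjusted p = 0.084, limma). Without the arrays whose Y-linked genes went against the labelled sex it was 0.315 and was not called (adjusted p = 0.63, limma).

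The endothelial markers, several of which are known ERG targets, were read beside Erg. Of 14 measured markers, 12 had a higher mean in Ts66Yah than in EupTs66Yah, with a median log2 difference of 0.12, and 10 of 14 lay at or above the median signal. With all arrays 14 of 14 had a higher mean, with a median of 0.17. Of all 22206 probe sets, 11462 had a higher mean in Ts66Yah, and 13021 with all arrays. At an unadjusted p under 0.05 there were 5 of the 14 in Ts66Yah, also with all arrays, and 0 in Ts65Dn (limma). Over all probe sets that count was 2689 in Ts66Yah, 2271 with all arrays, and 1285 in Ts65Dn (limma). Their mean per embryo ranged from 6.89 to 7.40 in EupTs66Yah, with a mean of 7.17 ± 0.15 (SD, n = 23), and from 7.06 to 7.59 in Ts66Yah, with a mean of 7.29 ± 0.13 (SD, n = 24). In the first colony 7 of 14 had a higher mean in Ts65Dn, and the mean per embryo ranged from 6.12 to 6.51 in EupTs65Dn and from 6.0 to 6.47 in Ts65Dn. Eng, the endothelial coreceptor of the TGF-beta family, was the only one of the 14 called, 1.25-fold higher in Ts66Yah with a log2 difference of 0.32 ± 0.077 (SE) and an adjusted p of 0.032 (limma). With all arrays Eng was not called (adjusted p = 0.14, limma), nor with the standard deviation of the array as a covariate (adjusted p = 0.23), nor without litter WT12, WT15 or WT18 (adjusted p = 0.16, 0.13 and 0.20). The part of the endothelial markers in the Erg difference was not tested. In whole forebrain, more cells of a type and more RNA per cell cannot be told apart.

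Runx1, the haematopoietic and myeloid factor, did not pass in either model. Its probe set lay at the 35.2nd percentile of mean signal in the Ts65Dn colony and at the 32.7th in the Ts66Yah colony. The lowest, median and highest signal were 2.71, 3.73 and 4.94 in EupTs65Dn and 2.81, 3.89 and 5.09 in Ts65Dn, ranges that nearly coincide. The difference was 0.13 ± 0.18 (SE, n = 23 and 18; adjusted p = 0.98, limma), with an interval of 0.853-fold to 1.41-fold. In EupTs66Yah the values were 2.68, 4.78 and 5.63, and in Ts66Yah 4.58, 5.23 and 6.03. Of the 24 Ts66Yah embryos 17 lay above the euploid median, and 8 euploid embryos lay below the lowest trisomic one. The difference was 0.39 ± 0.14 (SE, n = 24 and 23), or 1.31-fold, and did not pass (adjusted p = 0.24, limma), and with all arrays it was 0.37 (adjusted p = 0.40, limma). Litter WT18 alone had a difference of 1.17 in Runx1, against -0.09 to 0.40 in the other 5 litters, and without it the difference was 0.18 (adjusted p = 0.69, limma). Of 13 microglia and myeloid markers 5 lay at or above the median signal in each colony and 0 were called in either model (limma; 0 and 1 of 13 at an unadjusted p under 0.05; 0 by the unpaired t-test). Their mean per embryo was 5.07 ± 0.17 (SD, n = 18) in EupTs65Dn and 5.09 ± 0.12 (SD, n = 23) in Ts65Dn, and 6.30 ± 0.12 (SD, n = 23) in EupTs66Yah and 6.36 ± 0.13 (SD, n = 24) in Ts66Yah.

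Sim2 and Ripply3, next to each other in the list of members along the segment, showed no difference that passed the test. The lowest, median and highest signal of Sim2 were 2.09, 3.01 and 3.91 in EupTs65Dn and 1.97, 3.02 and 4.19 in Ts65Dn. In the second colony they were 3.35, 3.92 and 4.97 in EupTs66Yah and 3.29, 3.98 and 4.86 in Ts66Yah. The medians of Sim2 lie close together and the ranges coincide in both colonies. Its difference was 0.10 ± 0.18 (SE; adjusted p = 0.99, limma) in Ts65Dn and -0.01 ± 0.12 (SE; adjusted p = 0.98, limma) in Ts66Yah, with intervals of 0.834-fold to 1.37-fold and 0.839-fold to 1.17-fold. With the low-spread array, which read Sim2 at 7.02, the Ts66Yah difference was -0.14 (adjusted p = 0.68, limma). The percentile of its mean signal was 24.7 in the first colony and 19.1 in the second, among the lower part of all probe sets.

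Ripply3 ran from 2.53 through a median of 3.68 to 4.67 in EupTs65Dn and from 3.32 through 3.99 to 4.93 in Ts65Dn. Of the 23 Ts65Dn embryos 17 lay above the euploid median, while 2 lay above the highest euploid embryo. The difference was 0.30 ± 0.14 (SE, n = 23 and 18), or 1.23-fold, with an unadjusted p of 0.042 and an adjusted p of 0.85 (limma). In the second colony Ripply3 ran from 4.30 through 5.41 to 6.59 in EupTs66Yah and from 4.37 through 5.29 to 6.48 in Ts66Yah. There 11 of 24 trisomic embryos lay above the euploid median. The difference was -0.10 ± 0.16 (SE, n = 24 and 23; adjusted p = 0.84, limma), with an interval of 0.744-fold to 1.17-fold, and with all arrays it was -0.25 (adjusted p = 0.61, limma).

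**Figure D2:**
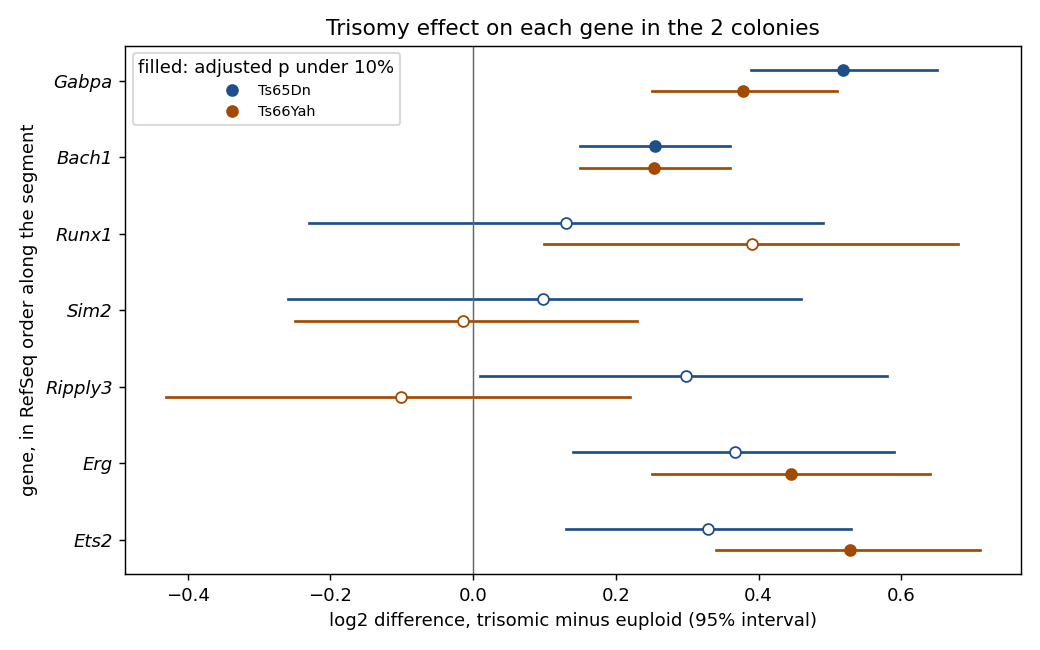
Log2 difference (horizontal axis, trisomic minus euploid) of each gene in Ts65Dn (blue) and Ts66Yah (orange, without the low-spread array); points are estimates, bars 95% intervals, and filled points have an adjusted p under 10%. Gabpa and Bach1 are filled in both models and Erg and Ets2 in Ts66Yah, and the intervals of the 2 models overlap for every gene.

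The Ts66Yah difference minus the Ts65Dn difference was tested in 1 fit of both colonies. The models differ in the Mmu17 part, but the colonies also differ in breeding and in array level. The test therefore cannot tell the Mmu17 part from other differences between the colonies. Of the 7 members 0 passed this test (limma; 0 at an unadjusted p under 0.05; 0 by the unpaired t-test), where 0.149% of all probe sets were called. Ripply3 had the lowest p, with a difference of effects of -0.40 ± 0.22 (SE; unadjusted p = 0.075, adjusted p = 0.74, limma). With all arrays it was -0.55, with an interval of -1.08 to -0.02 (unadjusted p = 0.044, adjusted p = 0.71, limma), the 1 member then under an unadjusted p of 0.05. For Gabpa the difference of effects was -0.14 ± 0.090 (SE; adjusted p = 0.79), with an interval of -0.32 to 0.04, and with all arrays it was 0.06 (interval -0.39 to 0.51). For Ets2 it was 0.20 ± 0.13 (SE; adjusted p = 0.80), with an interval of -0.07 to 0.47, and with all arrays it was 0.33 (interval -0.05 to 0.71). The estimate nearest 0 was that of Bach1, whose interval of -0.15 to 0.14 was also the narrowest of the 7, and with all arrays its interval was -0.18 to 0.43. That Erg and Ets2 were called in Ts66Yah and not in Ts65Dn is therefore no tested difference between the models: the interval for Erg was -0.22 to 0.38. The intervals of Runx1, from -0.20 to 0.72, of Sim2, from -0.53 to 0.31, and of Ripply3, from -0.84 to 0.04, are too wide to show that the models act alike. Likeness of the models was not tested for any member.

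Within litters, the trisomic embryos were set against their own euploid littermates. Litter WT11 held 1 euploid embryo, on which its differences rest, and litters WT13 and TS42 held 2 each. Gabpa was higher in the trisomic embryos of 6 of 6 litters in each colony, by 0.36 to 0.76 in Ts65Dn and by 0.03 to 0.70 in Ts66Yah. Its smallest differences were those of WT11, at 0.03, and of WT19, at 0.05. Litter WT19 held arrays at the segment level of the opposite genotype, and WT11 did not. Bach1 was also higher in 6 of 6 litters in each, by 0.09 to 0.38 in Ts65Dn and by 0.18 to 0.41 in Ts66Yah. These are the 2 members whose litters all lay on one side in both colonies. Erg was higher in 6 of 6 Ts65Dn litters, by 0.15 to 0.55, and in 5 of 6 Ts66Yah litters, from -0.11 to 0.71. Ets2 was higher in 5 of 6 Ts65Dn litters, from -0.25 to 1.07, and in 6 of 6 Ts66Yah litters, by 0.08 to 0.96. The spread between litters was thus wider for Ets2 than for Bach1 in both colonies. Runx1 was higher in 3 and 4 of 6 litters, Sim2 in 4 and 5, and Ripply3 in 3 and 4, in Ts65Dn and Ts66Yah respectively, and for these genes the litters lay on both sides of 0.

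**Figure D3:**
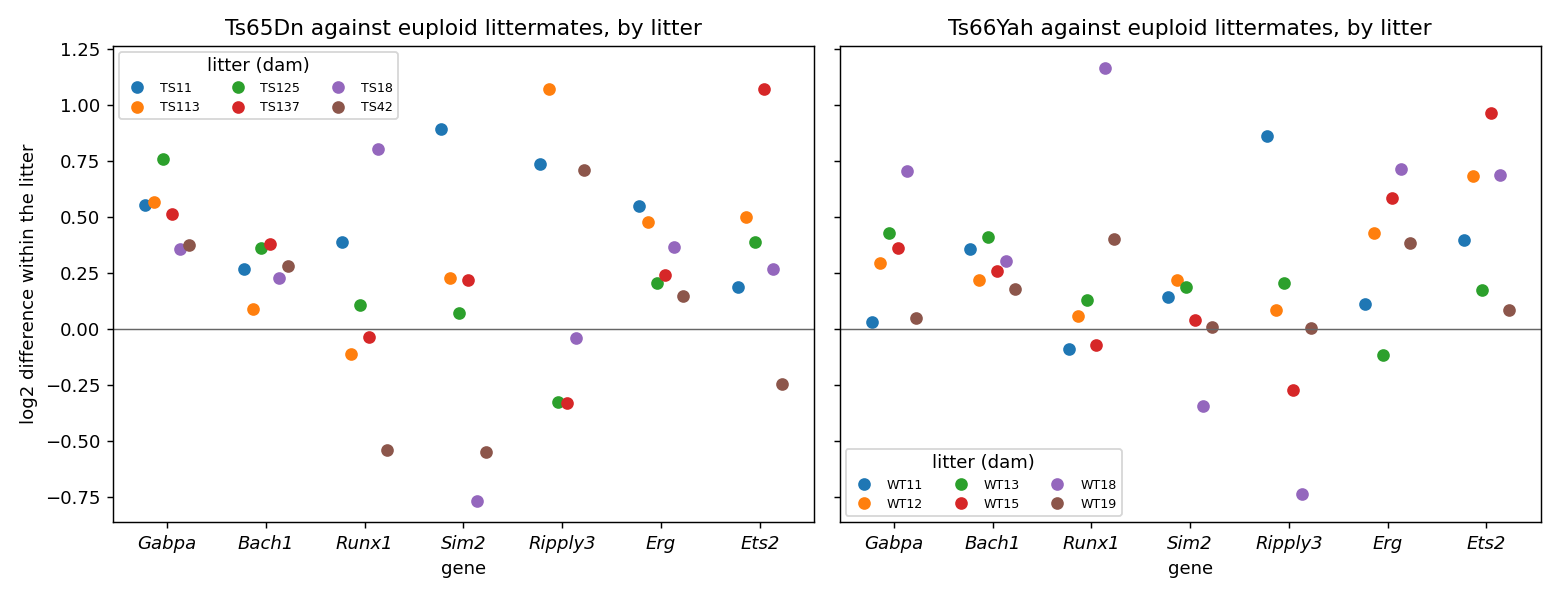
Trisomic minus euploid mean within each litter (vertical axis, log2) for the 7 genes, with Ts65Dn on the left and Ts66Yah on the right; each point is 1 litter, coloured by dam, without the low-spread array. All points of Gabpa and Bach1 lie above 0, and those of Runx1, Sim2 and Ripply3 lie on both sides.

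Beyond genotype, the members were compared with each other as each embryo's value minus its group mean, over 21 pairs in each colony (permutation test with 100000 resamples within groups, two-sided, Benjamini-Hochberg over the 21 pairs). In the Ts65Dn colony 0 of 21 pairs passed (2 at an unadjusted p under 0.05, Bach1 with Ripply3 and Ripply3 with Ets2), with Pearson's r between -0.39 and 0.19. In the Ts66Yah colony 9 of 21 passed, 6 of them positive. The pair with the highest r was Erg and Ets2, which lie next to each other in the list of members along the segment, with r = 0.56 (adjusted permutation p = 0.0021) and Spearman's rho = 0.58 (adjusted permutation p = 0.0017, n = 47). Without the 2 embryos farthest from the median of Erg, r was 0.50. In the Ts65Dn colony the same pair had r = 0.05 and rho = 0.11 (n = 41). Gabpa with Erg had r = 0.42, Gabpa with Bach1 r = 0.39, and Gabpa with Ripply3 r = -0.37 in the Ts66Yah colony. These relations moved with the spread of the arrays: with the standard deviation of each array taken out, 1 of 21 pairs passed, Gabpa with Bach1 at r = 0.49, and Erg with Ets2 fell to r = 0.31 (adjusted permutation p = 0.24). Without the arrays at the level of the opposite genotype 5 of 21 passed, and with values taken within litter and genotype 5 of 21, with Erg and Ets2 among them each time at r = 0.49 and r = 0.54. Gabpa with Bach1 did not pass without the arrays at the opposite level (r = 0.22, adjusted permutation p = 0.31). Within litter and genotype that pair passed (r = 0.46, adjusted permutation p = 0.065).

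**Figure D4:**
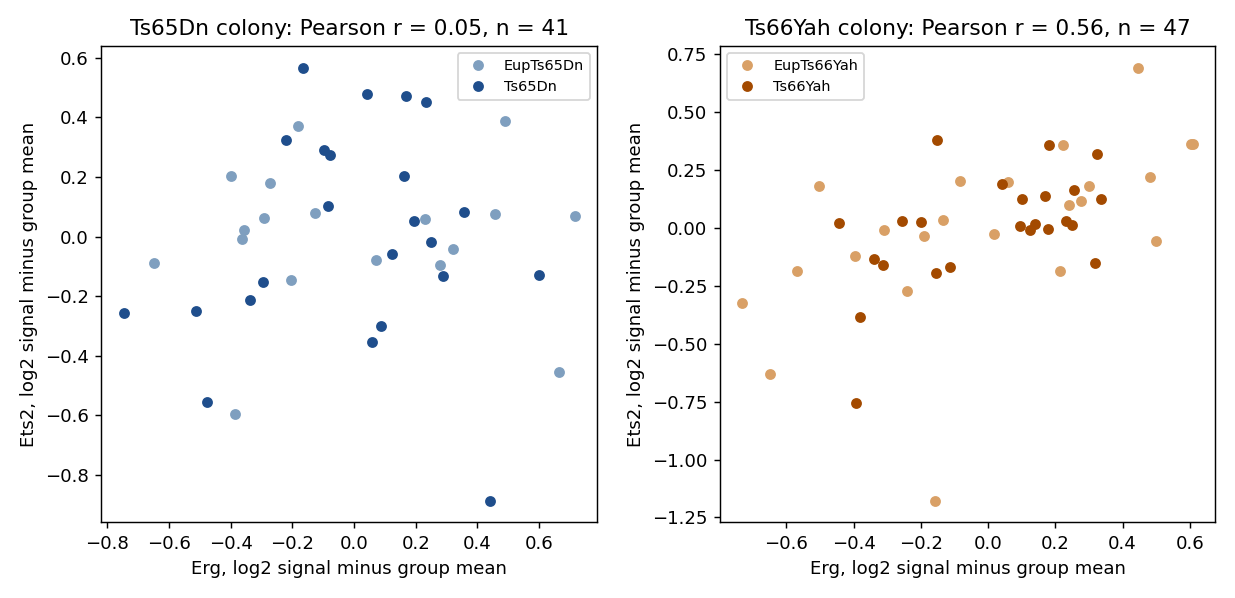
Erg (horizontal axis) against Ets2 (vertical axis), each as log2 signal minus the mean of the embryo's group, in the Ts65Dn colony on the left (n = 41) and the Ts66Yah colony on the right (n = 47); each point is 1 embryo, coloured by genotype. The points rise together on the right (r = 0.56), and show no such slope on the left (r = 0.05).

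The genes whose pattern was most like each member were taken from 19416 named probe sets outside the triplicated parts, by the smaller of the r values of the 2 colonies, again on values minus group means (n = 41 and 47). This is a ranking over many candidates and carries no test. For Gabpa they were Clasp2, a microtubule plus-end protein (r = 0.54 and 0.66), Dync1li2, a dynein chain (0.53 and 0.56), and Tjp1, a tight junction scaffold (0.55 and 0.53). For Erg they were Tgfb1, a growth factor (0.53 and 0.61), Nav1 (0.48 and 0.55) and Gemin8 (0.49 and 0.48), and for Ets2 St6galnac3, a sialyltransferase (0.60 and 0.60), Emc1 (0.53 and 0.55) and Trmt1 (0.52 and 0.52). For Bach1 they were Olfr1206, Otud3 and Gm5862, all at r = 0.40 or below in both colonies. The dim members ranked first with Synpo, Rmc1 and Il17b for Runx1, with Acoxl, Magea2 and Vmn1r41 for Sim2, and with Defa3, Defa17 and Olfr701 for Ripply3, at r between 0.38 and 0.54. For Synpo and Il17b in the Ts66Yah colony Spearman's rho was 0.17 and 0.09 where r was 0.44 and 0.40. Defa3 and Defa17, defensins of the gut, gave the same 4 coefficients and belong to a family of near-identical genes whose probes may not tell members apart.

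The other genes of these pathways were read from 12 lists with 167 measured genes. In Ts65Dn 0 of the 167 list genes were called (limma; 11 at an unadjusted p under 0.05; 0 by the unpaired t-test), and in Ts66Yah 1 was called higher, Eng, and 1 lower, the epithelial ETS factor Elf3. In Ts66Yah 22 list genes had an unadjusted p under 0.05 (limma). With all arrays of the Ts66Yah colony 0 were called (limma; 19 at an unadjusted p under 0.05). Of all 22206 probe sets, 1285 had an unadjusted p under 0.05 in Ts65Dn and 2689 in Ts66Yah, or 2271 with all arrays (limma). The counts of the single lists stand against the same background. Elf3 was 0.703-fold in Ts66Yah, with a log2 difference of -0.51 ± 0.13 (SE) and an adjusted p of 0.056 (limma). The Elf3 call was lost with all arrays (adjusted p = 0.14), with the standard deviation of the array as a covariate (0.23), after quantile normalization within the colony (0.11), and without litter WT12, WT15 or WT19 (0.33, 0.21 and 0.18).

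Among the 22 measured ETS genes outside the segment, 10 had a higher mean in Ts65Dn and 14 in Ts66Yah, with median log2 differences of -0.01 and 0.06. Fli1, the close relative of Erg, had the lowest p in Ts65Dn at 0.864-fold (adjusted p = 0.60, limma). Among 24 partners and paralogues of the other members, 8 had a higher mean in Ts65Dn and 14 in Ts66Yah. There Mafg, a small MAF partner of BACH1, had the lowest p in Ts65Dn at 1.19-fold (adjusted p = 0.38, limma), and Tbx1, the T-box factor that RIPPLY3 represses, in Ts66Yah at 0.725-fold (adjusted p = 0.14, limma).

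The listed targets of the called members were read the same way. Of 18 measured GABPA targets, which are nuclear genes of mitochondrial respiration, mitochondrial DNA upkeep and a few others, 0 were called in either model (limma; 0 and 3 at an unadjusted p under 0.05; 0 by the unpaired t-test), with median log2 differences of 0.02 in Ts65Dn and 0.01 in Ts66Yah. All 18 lay at or above the median signal in both colonies. With all arrays of the Ts66Yah colony, 18 of 18 had a higher mean in Ts66Yah with a median of 0.20, against 10 of 18 without the low-spread array. The gene with the lowest p was Cox8a in Ts65Dn, at 1.06-fold (adjusted p = 0.90), and Cox7b in Ts66Yah, at 1.08-fold (adjusted p = 0.30), both subunits of cytochrome c oxidase. Of 13 measured BACH1 targets 0 were called (limma; 1 and 1 at an unadjusted p under 0.05; 0 by the unpaired t-test), with medians of 0.003 and 0.04. Gclc, which makes glutathione, was at 0.924-fold in Ts65Dn (adjusted p = 0.83), and the iron exporter Slc40a1 at 1.26-fold in Ts66Yah (adjusted p = 0.27). Of 16 genes tied to ETS2, the ERK response and proteases, 0 were called (limma; 1 and 2 at an unadjusted p under 0.05; 0 by the unpaired t-test), with medians of -0.01 and 0.08.

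The lists for other cells the tissue could hold gave no called gene either. The median log2 difference in Ts65Dn and Ts66Yah was 0.06 and -0.07 for 6 erythroid markers, 0.07 and -0.03 for 12 diencephalon markers, and 0.05 and 0.08 for 11 choroid plexus and meningeal markers. It was 0.07 and 0.17 for the 8 midbrain and hindbrain markers and -0.03 and -0.02 for the 10 forebrain markers (limma; over these 5 lists, at an unadjusted p under 0.05, the largest count was 3 of 11, for choroid plexus and meningeal markers in Ts66Yah; 0 by the unpaired t-test).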

How the data were processed

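The deposited values are log2 signals, summarised by the authors with RMA per the submitters' processing notes; RMA version, settings and array annotation: not given in the sources used here. Genes were named through a probe table and placed by the RefSeq gene table (GRCm38.p6); 19572 of 22206 probe sets had 1 symbol. Members and lists were chosen with earlier results of these data known. Each trisomic group was compared with its own euploid group with limma 3.58.1 in R 4.3.3 (lmFit, eBayes, two-sided) on all probe sets without a filter, Benjamini-Hochberg at 10%, as the series states a 10% rate for unpaired tests; the procedure was tested on simulated data. An array under 0.75 times its group's median standard deviation was left out of the Ts66Yah fit. The number of arrays limits the precision. The dam is given in the labels, so litter pairs samples; it entered as a block only as an alternative. Embryos of 1 litter share a dam and are not fully independent. Other alternatives were sex and array standard deviation as covariates, the t-test of the series, a 5% threshold, its marginal criterion, normalizations, filter, weights, prior, sets of arrays and each litter left out. The genes named are the members, the 3 most alike genes per member and, per list and model, up to 4 called genes or the one with the lowest p; a part of these is printed. Array standard deviation in the correlations was added after seeing the data. Python 3.11.15 with matplotlib 3.10.9 drew the plots. The series text counts 25 Ts66Yah arrays and 24 are labelled so; the labels were followed.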

Additional observations from a re-analysis of the deposited data

How the results depend on the processing

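With litter as a replicate block the count of called members stayed at 2 of 7 in Ts65Dn, 4 of 7 in Ts66Yah and 0 of 7 in the difference of effects, and with the same genes in each. The count was 2 to 3 in Ts65Dn over 20 alternatives, and 2 to 4 in Ts66Yah over 21: it was 2 with all arrays, and 3 with array spread as a covariate and without litter WT18. In the difference of effects it was 0 in all 26 alternatives. Gabpa was called in Ts65Dn in all 20 alternatives and Ets2 in Ts66Yah in all 21. Pairs passing in the Ts66Yah colony moved from 9 to 5 without the arrays at the level of the opposite genotype, to 5 within litter and genotype, and to 1 with array spread taken out.

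Each log2 difference whose sign turned was one that had not been called, and the cause was not tested. Leaving out 1 litter at a time gave -0.067 to 0.277 for Sim2 and -0.0058 to 0.232 for Runx1 in Ts65Dn. In Ts66Yah, Sim2 turned to 0.0087 with the block, 0.098 with array spread as a covariate, 0.026 after quantile normalization, 0.068 with array weights, 0.014 without the arrays at odds with their labelled sex, and ran from -0.072 to 0.076 with 1 litter left out. Ripply3 turned to 0.144 with array spread as a covariate and ran from -0.213 to 0.069 with 1 litter left out. In the difference of effects, Bach1 turned to 0.0075 with the block, 0.0051 with array spread, 0.011 with weights, 0.123 with all arrays, 0.027 without the arrays at the opposite level, 0.0023 without those at odds with the labelled sex, and ran from -0.041 to 0.019 with 1 litter left out. There Sim2 turned to 0.028 and Erg to -0.069 with array spread, Sim2 ran from -0.291 to 0.053 with 1 litter left out, and Gabpa to 0.058 with all arrays. The r of Gabpa and Runx1, a pair that had passed, turned from 0.32 to -0.05 with all arrays.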
